A study of Mus musculus with 45 samples.

Results

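Macrophages sorted from regenerating skeletal muscle as low in surface major histocompatibility complex class II (MHCII-) were compared between day 7 and day 4 after a cardiotoxin injury. The comparison takes 5 of the 45 arrays of the series: the 3 MHCII- arrays of mice without the transgene (DTR-) whose titles name day 7 and 24 h of diphtheria toxin (DT), and the 2 MHCII- arrays of DTR- mice at day 4. Cardiotoxin is a snake venom protein that kills muscle fibres, after which the muscle regrows. DTR stands for Foxp3.DTR, a toxin receptor expressed from the Foxp3 promoter so that DT removes regulatory T cells. The mice compared here lack it, so the toxin has no such target in them.

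Both groups came from male C57Bl6 mice, Foxp3.DTR-, aged 8 weeks, with cardiotoxin in the muscle. The day 7 cells were gated as Ly6g- CD11b+ F4-80+, and the day 4 cells as CD45+ DAPI- CD11b+ Ly6g- SiglecF- F4-80+. The day 7 gate thus lists no SiglecF step, and SiglecF is a surface protein of eosinophils. The day 4 titles give no DT time, and no label says from what moment the 24 h are counted. The 2 groups belong to different sets of arrays, so set, gate, DT and day cannot be told apart. A marker entry in the labels reads MHCII- even for the samples titled MHCII+ after injury, so the subset was taken from the titles. The labels do not say whether samples came from separate animals, and the p-values measure the spread between these samples.

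Other DTR- groups are used beside these. A second set of 4 MHCII- arrays at day 7, with 8 h of DT in the titles, came from mice of 12 weeks and from a gate that left out SiglecF+ cells, as at day 4. MHCII+ macrophages had 4 arrays at day 7 (24 h set, 24 h of DT in the titles) and 2 at day 4 (no DT time), from mice of 8 weeks and with the gates of the MHCII- cells of the same day. MHCII- cells of uninjured muscle (day 0, 10 weeks, no SiglecF step) and of day 1 (8 weeks, 24 h of DT, SiglecF- gate) had 2 arrays each. For the class II genes, MHCII+ cells are also plotted at day 0 and day 1 (2 arrays each) and in the 8 h set (3 arrays), with the age, DT and gate of the MHCII- cells beside them.

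Injured muscle is entered by blood monocytes that turn into macrophages, clear dead fibres, and within days pass from an inflammatory to a repair-associated state. Macrophages that live in undisturbed muscle carry their own set of surface lectins, scavenger receptors and iron-handling genes. MHCII molecules display peptides to CD4+ T cells, and their genes are switched on together by the coactivator CIITA.

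Expression was read from the Affymetrix Mouse Gene 1.0 ST microarray, and levels are given as log2 of the deposited intensity, where 1 unit is a factor of 2. The median intensity of an array was 174.7 at the lowest and 203.7 at the highest, and precision is limited by how few arrays there are. The 2 day 4 arrays correlated at 0.995. Day 7 replicates 1 and 2 correlated at 0.997, and replicate 3 correlated with them at 0.981 and 0.982, so replicate 3 stood somewhat apart. The macrophage genes Adgre1 (F4/80) and Csf1r lay at 12.85 to 12.91 and 13.03 to 13.14 at day 7, against 12.99 to 13.05 and 13.09 to 13.13 at day 4. None of the 12 macrophage identity genes passed the test in either direction, where 1.17% of all tested genes did.

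A gene was tested where its mean in at least 1 group of the series reached 7.57, the median of all values. Of 11074 genes tested, 130 (1.17%) passed an adjusted p of 0.05 in limma, with 85 (0.768%) higher and 45 (0.406%) lower at day 7. The median change over all tested genes was 0.03, and 27 genes (0.244%) both passed and differed at least 2-fold, 21 of them higher and 6 lower. The strongest rises were those of C-type lectins of the Cd209 family, of the iron exporter Slc40a1, of the lipase Pla2g2d and of the MHCII genes themselves. The falls belonged to genes of varied function. The volcano plot shows this lean towards rises among the large changes. Values of the 2 groups did not overlap in 130 of the 130 genes that passed, and in 41.9% of all genes tested.

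**Figure D1:**
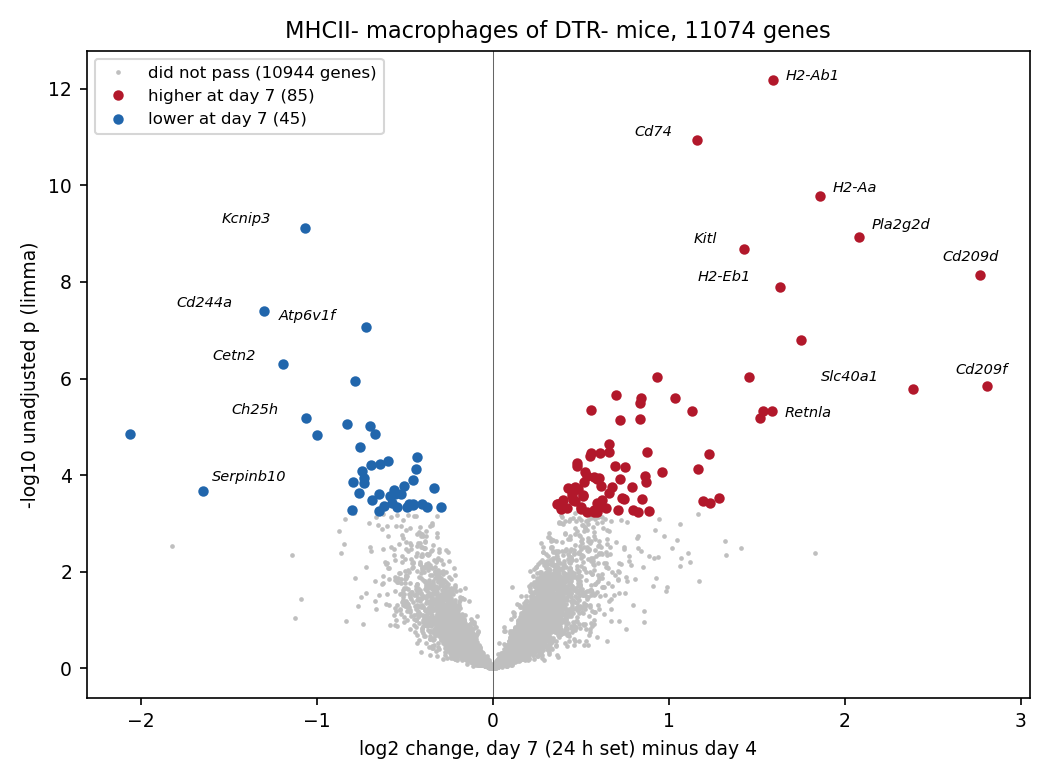
Each point is 1 of 11074 genes: the horizontal axis is the log2 change at day 7 (24 h set, 3 arrays) minus day 4 (2 arrays), and the vertical axis is the -log10 of the unadjusted limma p. Red points (85) were higher and blue points (45) lower at day 7 after adjustment. H2-Ab1 and Cd74 stand at the top, and Cd209f and Cd209d farthest to the right.

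The count depended on single arrays. It was 26 without day 4 replicate 1 and 18 without day 4 replicate 2, against 51, 37 and 131 without day 7 replicate 1, 2 or 3. Of the 130 genes, 12 passed with each of the 5 arrays left out in turn: H2-Ab1, H2-Aa, H2-Eb1, Cd74, Cd209d, Pla2g2d, Kitl and Coro2b, which rose, and Kcnip3, Cd244a, Cetn2 and Atp6v1f, which fell. Median centring of each array gave 84 genes.

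H2-Ab1, Cd74 and H2-Aa gave the smallest p-values of all genes although the cells had been sorted for low MHCII protein, and the levels of MHCII genes are tied to that gate. Within the MHCII- gate, the chains of the class II molecules were about 3-fold higher at day 7. Of 13 tested genes of class II presentation, 5 rose and 0 fell, where 0.768% of all tested genes rose and 0.406% fell. The list median was 0.11, against 0.03 over all genes.

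H2-Ab1, the beta chain of I-A, lay at 12.19, 12.13 and 12.12 at day 7, against 10.61 and 10.50 at day 4. The groups were far apart and tight, and the gene rose by 1.59 ± 0.14 (SE), or 3.02-fold (limma adjusted p = 7.4e-09). H2-Aa, its alpha chain partner, lay at 12.59, 12.69 and 12.29 at day 7, against 10.69 and 10.64 at day 4. It rose by 1.86 ± 0.20, or 3.63-fold (limma adjusted p = 6.2e-07), with each day 7 array above both day 4 arrays. H2-Eb1, the beta chain of I-E, lay at 11.36, 11.26 and 11.02 at day 7, against 9.54 and 9.62 at day 4. It rose by 1.64 ± 0.22 (limma adjusted p = 1.8e-05). Cd74, the invariant chain that escorts new class II molecules, lay at 12.82, 12.85 and 12.60 at day 7, against 11.78 and 11.41 at day 4. It rose by 1.16 ± 0.11 (limma adjusted p = 6.5e-08).

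Ciita, which encodes the coactivator of these genes, lay at 8.81, 8.90 and 8.61 at day 7, against 8.12 and 7.85 at day 4. It rose by 0.79 ± 0.19 (limma adjusted p = 0.027), a smaller change than those of the chains. Ciita passed without day 7 replicate 3 but not when any one of the other 4 arrays was left out, with adjusted p from 0.096 to 0.5. H2-DMa, a chain of the peptide-loading helper H2-DM, changed by 0.32 ± 0.17 and did not pass (limma adjusted p = 0.47). The costimulatory genes Cd86 (-0.01) and Cd80 (0.04) and the processing genes Ctss (-0.11) and Ifi30 (-0.20) lay near 0 change and did not pass.

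Promoter windows from RefSeq (GRCm38.p6, 250 bases before to 50 after the gene start) held H2-Aa and H2-Eb1. They are shown because class II promoters are known for a pair of short elements, the X box and the Y box, on which RFX and NF-Y sit and to which CIITA is recruited. Capitals mark the matches to CTNGCAAC (X box core) and CTGATTGG (Y box). The H2-Aa stretch is chr17:34287847-34287927 on the minus strand and the H2-Eb1 stretch is chr17:34305753-34305832 on the plus strand.
H2-Aa: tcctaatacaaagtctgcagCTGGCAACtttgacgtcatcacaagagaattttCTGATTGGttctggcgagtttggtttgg
H2-Eb1: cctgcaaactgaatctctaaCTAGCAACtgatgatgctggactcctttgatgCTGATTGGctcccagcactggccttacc
Both strands were searched, and the motifs were chosen after the expression values had been seen. The X core occurred in 3.42% of 32851 promoter windows, the Y box in 4.1%, and both in 59 windows (0.18%). A match describes the letters and is not a bound site.

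The same genes lay much higher in MHCII+ macrophages. H2-Ab1 lay at 13.83 to 14.0 at day 7, against 13.86 to 13.91 at day 4, in MHCII+ arrays, a change of 0.02 ± 0.13, and H2-Aa (0.08 ± 0.19), H2-Eb1 (0.09 ± 0.21) and Cd74 (0.11 ± 0.11) were as close to 0. The difference between the changes of the MHCII- and MHCII+ cells was tested over all genes, and 5 of 11074 (0.0452%) passed, 4 with the larger change in MHCII- cells (0.0361%) and 1 with the smaller (0.00903%). An unadjusted p under 0.05 was reached by 356 genes.

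The 4 were H2-Aa, with a difference of 1.78 ± 0.28 (limma adjusted p = 0.0014), H2-Ab1, with 1.57 ± 0.19 (2.6e-05), H2-Eb1, with 1.55 ± 0.30 (0.026), and Cd74, with 1.05 ± 0.16 (0.00079). H2-Eb1 lost its call when any one of 8 of the 11 arrays was left out, with adjusted p from 0.056 to 0.27. The exceptions were MHCII+ replicates 2 and 4 and MHCII- replicate 3 of day 7. MHCII+ values of these genes reached 14.0, close to the highest value of the whole table, 14.59, and the deposited values carry no saturation flag. The part of such a ceiling in the difference was not tested.

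The 1 gene of the other sign was H2-M2, a class Ib gene of the H2-M cluster. H2-M2 lay at 7.08 to 7.34 at day 7, against 6.81 to 7.03 at day 4, in MHCII- arrays. In MHCII+ arrays it lay at 9.0 to 9.85 at day 7, against 7.31 to 7.5 at day 4. The 2.03 ± 0.21 change there exceeded the 0.31 ± 0.22 in MHCII- cells, a difference of -1.72 ± 0.30 (limma adjusted p = 0.0057). It lost the call without day 4 MHCII+ replicate 3 (adjusted p = 0.11) and without day 4 MHCII- replicate 1 (0.16).

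**Figure D2:**
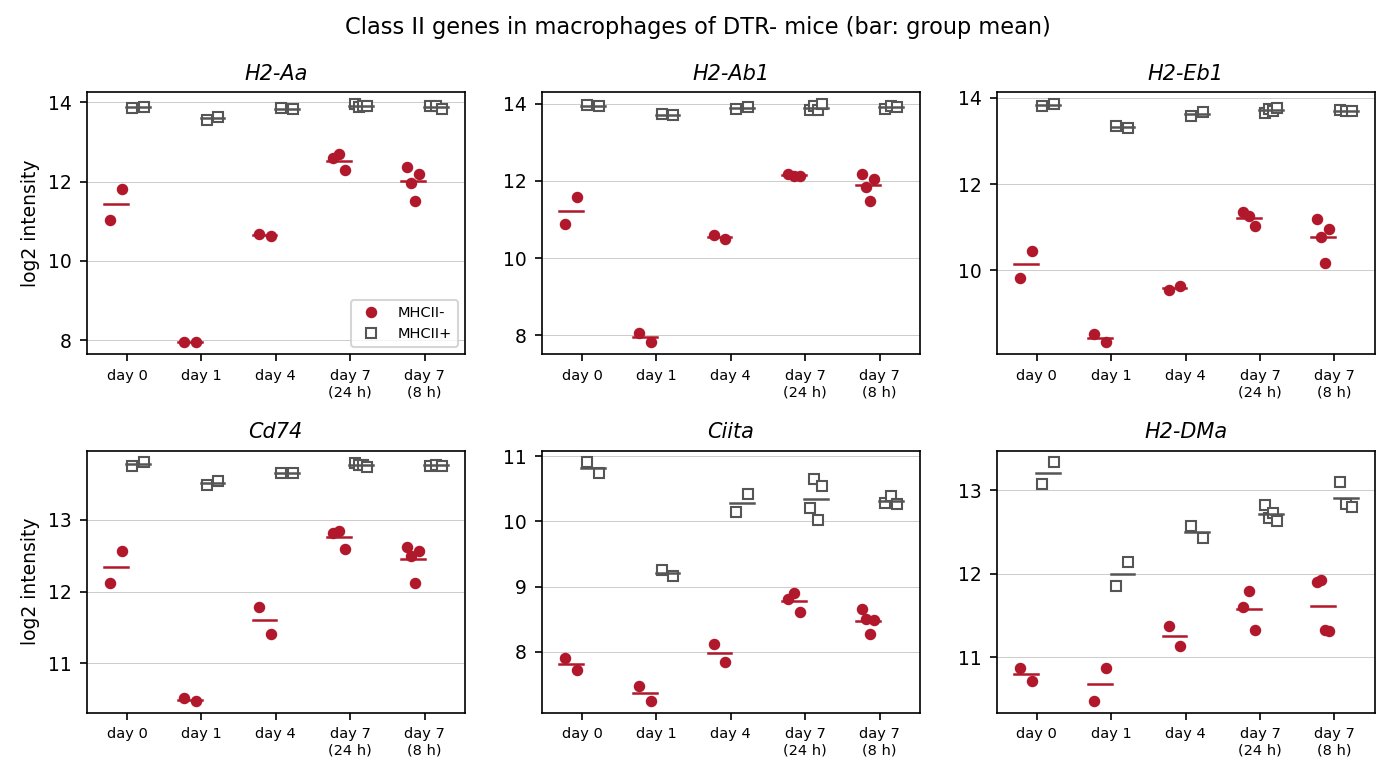
Log2 intensity of 6 class II genes in each array of the DTR- groups named above by day, with MHCII- arrays as red circles, MHCII+ arrays as grey squares and bars at the group means. For H2-Aa, H2-Ab1, H2-Eb1 and Cd74, MHCII- values are lowest at day 1 and the 3 arrays of the 24 h set at day 7 lie above both day 4 arrays, while MHCII+ values of these 4 stay above 13.

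The lectins of the Cd209 family showed the largest rises. These genes are mouse relatives of human DC-SIGN, which binds mannose- and fucose-bearing glycans. Among 31 tested genes of resident-type tissue macrophages, 6 rose and 0 fell, where 0.768% of all tested genes rose and 0.406% fell, and the median change was 0.31 against 0.03 over all genes. The 6 were Cd209a, Cd209b, Cd209d, Cd209f, Cd209g and Timd4. Cd209b falls outside the rule for named genes and was named after its values were seen.

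Cd209f lay at 12.18, 12.02 and 11.28 at day 7, against 9.24 and 8.80 at day 4. The lowest day 7 array exceeded the higher day 4 array by a wide margin, and the gene rose by 2.81 ± 0.48, or 7.0-fold (limma adjusted p = 0.00099). Cd209d lay at 10.73, 10.80 and 10.18 at day 7, against 8.18 and 7.41 at day 4. It rose by 2.77 ± 0.36, or 6.82-fold (limma adjusted p = 1.1e-05). Cd209g lay at 9.34, 9.03 and 9.01 at day 7, against 7.65 and 7.53 at day 4. It rose by 1.53 ± 0.28 (limma adjusted p = 0.0021).

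Cd209a lay at 9.31, 9.30 and 9.31 at day 7, against 8.51 and 7.63 at day 4. The day 4 arrays differed more from each other than the day 7 arrays did, and the rise was 1.23 ± 0.31 (limma adjusted p = 0.04). Cd209b lay at 8.27, 8.18 and 7.78 at day 7, against 6.89 and 6.87 at day 4, and rose by 1.19 ± 0.30 (limma adjusted p = 0.038). Without day 4 replicate 2, Cd209f (adjusted p = 0.079) and Cd209g (0.1) no longer passed, while Cd209d did (0.0088). Cd209a passed only without day 4 replicate 1 and Cd209b only without day 7 replicate 3, with adjusted p from 0.072 to 0.79 and from 0.15 to 0.38 for the other left-out arrays.

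The Cd209 genes are close copies of each other, and signal may cross between their probes, so single members are uncertain. The likeness of Cd209f and Cd209g extends into their promoter windows (RefSeq, GRCm38.p6), which share an identical run of 180 bases and agree at 238 of 286 aligned bases (83.2%). The stretches below begin at -174 (Cd209f) and -188 (Cd209g) and end just before the gene start. The shared run begins within them, at -154 and -168, and goes on past the start, so the letters before it are not part of it. Capitals mark the match to the AP-1 element TGANTCA. Cd209f is chr8:4105765-4105938 on the minus strand and Cd209g is chr8:4134548-4134735 on the plus strand.
Cd209f: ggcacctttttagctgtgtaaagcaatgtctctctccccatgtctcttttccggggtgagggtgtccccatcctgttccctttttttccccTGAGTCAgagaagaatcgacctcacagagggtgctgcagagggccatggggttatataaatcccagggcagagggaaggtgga
Cd209g: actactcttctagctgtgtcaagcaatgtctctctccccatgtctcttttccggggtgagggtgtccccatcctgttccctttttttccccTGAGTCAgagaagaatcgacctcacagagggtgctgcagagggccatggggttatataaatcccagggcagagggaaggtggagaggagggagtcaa
TGANTCA, read on both strands and chosen after the values were seen, occurred in 7.81% of the 32851 windows. The windows of Cd209a, Cd209b and Cd209d held no match.

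Timd4, the phosphatidylserine receptor Tim-4 of long-lived resident macrophages, lay at 7.77, 8.03 and 7.49 at day 7, against 6.94 and 6.91 at day 4. It rose by 0.84 ± 0.16 (limma adjusted p = 0.0027) at a level close to the 7.57 of the filter. The call was lost without day 4 replicate 1 (adjusted p = 0.059) or 2 (0.1). Other members of the resident-type list did not pass. Vsig4, a complement receptor, changed by 0.97 ± 0.29 (adjusted p = 0.092 in limma), Lyve1, a hyaluronan receptor, by 0.31 ± 0.38 (0.81) and Cd163, the haptoglobin-hemoglobin receptor, by 0.41 ± 0.30 (0.63). Folr2 (0.12 ± 0.10) and the mannose receptor Mrc1 (-0.02 ± 0.16) lay close to 0 change.

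Iron and heme handling was led by Slc40a1, which encodes ferroportin, the exporter through which macrophages release iron. Slc40a1 lay at 11.46, 11.33 and 11.13 at day 7, against 8.80 and 9.03 at day 4. It rose by 2.39 ± 0.41, or 5.23-fold (limma adjusted p = 0.0011), and each day 7 array lay far above both day 4 arrays. The call was lost without day 4 replicate 1 (adjusted p = 0.057). Gclm, a subunit of the enzyme that starts glutathione synthesis, rose by 0.85 ± 0.21 (limma adjusted p = 0.037). Of the 22 tested members of this list, 2 rose and 0 fell, with a median of 0.25, where 0.768% of all tested genes rose. The heme transporter Slc48a1 (0.78 ± 0.26) and the biliverdin reductase Blvrb (0.57 ± 0.17) did not pass.

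Further genes with large rises encode secreted and signalling proteins. Pla2g2d, a secreted phospholipase A2, lay at 10.39, 10.14 and 9.76 at day 7, against 7.93 and 8.09 at day 4, and rose by 2.08 ± 0.25 (limma adjusted p = 2.7e-06). Retnla, which encodes RELM-alpha, a marker of alternative activation, lay at 12.06, 11.94 and 10.80 at day 7, against 9.98 and 10.04 at day 4. Replicate 3 of day 7 was more than 1 unit below the other day 7 arrays, yet above both day 4 arrays. Retnla rose by 1.59 ± 0.29 (limma adjusted p = 0.0021), and the call was lost without either day 4 array (adjusted p = 0.063 each). It was the 1 gene of 19 in the alternative activation list to pass, where 0.768% of all tested genes rose. Arg1, the arginase of that list, had 8.28, 8.13 and 9.66 at day 7, against 8.81 and 8.53 at day 4, and its groups overlapped.

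Kitl, the ligand of the receptor Kit, lay at 8.39, 8.43 and 7.85 at day 7, against 6.60 and 6.99 at day 4. It rose by 1.43 ± 0.17 (limma adjusted p = 3.9e-06). P3h2, a collagen prolyl hydroxylase, lay at 9.5, 9.7 and 8.81 at day 7, against 7.86 and 7.31 at day 4, and rose by 1.75 ± 0.26 (limma adjusted p = 0.00016). Gfra2, a receptor subunit for neurturin, rose by 1.46 ± 0.24, and Tcim, a small regulatory protein, by 1.52 ± 0.28. P3h2 (adjusted p = 0.053), Gfra2 (0.061) and Tcim (0.068) lost the call without day 4 replicate 2, and Tcim also without day 4 replicate 1 (0.076). Adam30, a member of the ADAM protease family, lay at 8.71, 8.71 and 7.56 at day 7, against 6.99 and 7.09 at day 4, and its rise of 1.28 ± 0.32 (limma adjusted p = 0.036) passed only without day 7 replicate 3 when single arrays were left out.

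Among transcription factors, Nfix, a nuclear factor I protein, lay at 10.60, 10.68 and 10.71 at day 7, against 9.98 and 9.94 at day 4. It rose by 0.70 ± 0.12 (limma adjusted p = 0.0013), the 1 gene of 33 listed macrophage transcription factors to pass, and lost the call without day 4 replicate 2 (adjusted p = 0.063). In the lipid-associated list 3 of 22 rose and 0 fell, where 0.768% of all tested genes rose and 0.406% fell, and the median was 0.10. The 3 were the fatty acid receptor Cd36 (0.54 ± 0.12), the proton pump subunit Atp6v0d2 (0.59 ± 0.14) and the elastase Mmp12 (0.89 ± 0.23). Tfeb, a regulator of lysosomal genes, rose by 0.48 ± 0.10 as the 1 gene of 32 in the lysosome list, and Ephx1, an epoxide hydrolase, by 0.66 ± 0.14 as the 1 of 18 eicosanoid genes. Gclm and these 5 each passed without day 7 replicate 3 and failed when any other single array was left out, with adjusted p between 0.066 and 0.5.

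**Figure D3:**
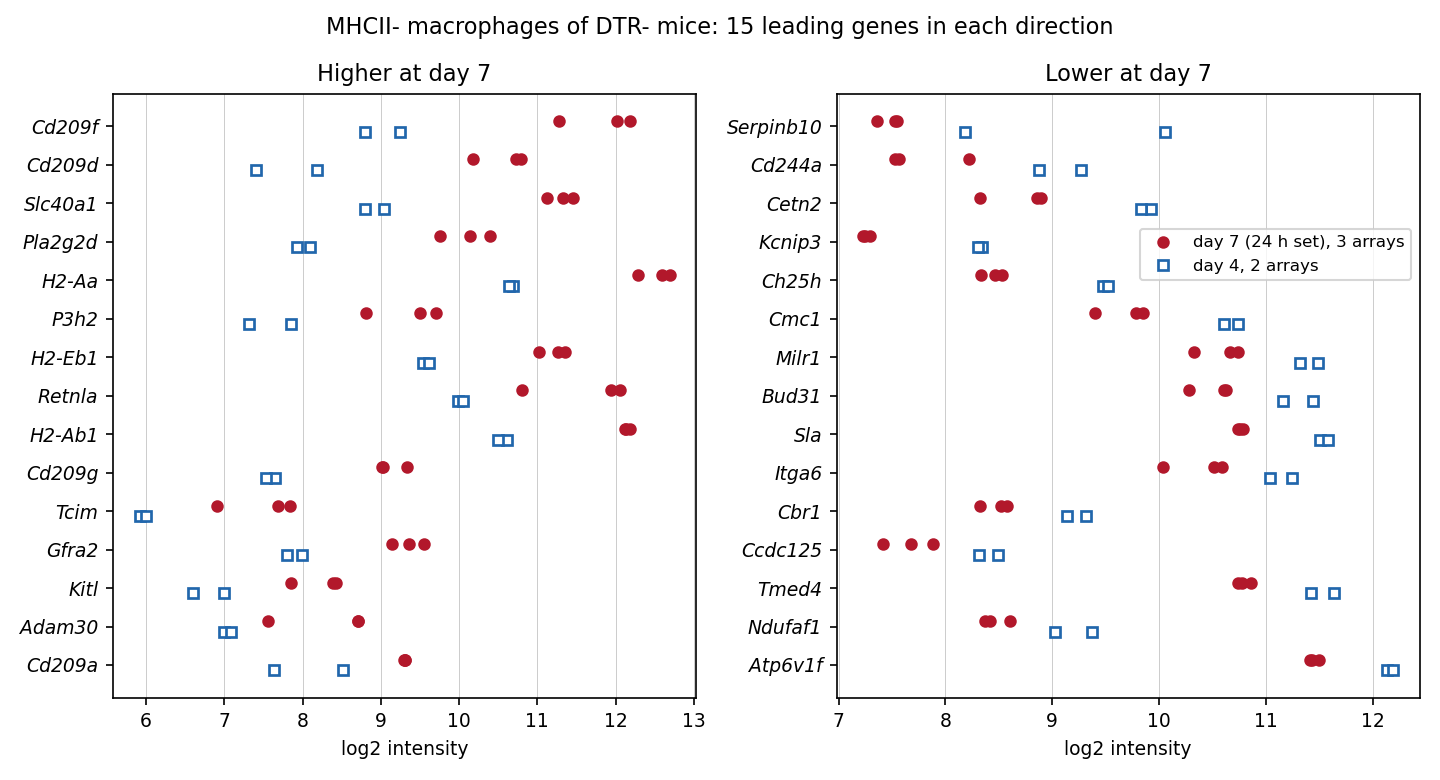
Log2 intensity of the 15 genes with the largest rises (left) and the 15 with the largest falls (right) in each array, with day 7 (24 h set) as red circles and day 4 as blue squares. The groups do not overlap in any row, which the choice of genes required, and the single circle apart on the left in several rows (Cd209f, Retnla, Adam30) is replicate 3.

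The largest fall was that of the predicted gene Gm9733, at 7.41, 7.33 and 7.33 at day 7, against 9.87 and 8.96 at day 4, a change of -2.06 that did not pass without day 4 replicate 1 (-1.61, limma adjusted p = 0.27). With predicted genes set aside, the 15 leading falls lay between -1.64 (Serpinb10) and -0.72 (Atp6v1f), and the 15 leading rises between 1.23 (Cd209a) and 2.81 (Cd209f). Kcnip3, a calcium-binding protein that binds potassium channels, lay at 7.25, 7.30 and 7.23 at day 7, against 8.34 and 8.30 at day 4. It fell by 1.06 on the log2 scale (SE 0.12, limma adjusted p = 2.1e-06). Cd244a, the SLAM-family receptor 2B4, lay at 7.56, 7.53 and 8.22 at day 7, against 9.27 and 8.87 at day 4, and changed by -1.30 ± 0.18 (limma adjusted p = 4.9e-05). Cetn2, a centrin of the centrosome, changed by -1.19 ± 0.19 and Atp6v1f, a subunit of the vacuolar proton pump, by -0.72 ± 0.11. Atp6v1f is not in the lysosome list, of which Tfeb alone passed. Also outside that list, the pump subunit Atp6v0d2 rose, while the lysosomal enzyme gene Ppt1 and Lamtor5, of the lysosome surface, fell. With single arrays left out Ppt1 changed by -0.33 to -0.24 and Lamtor5 by -0.6 to -0.53. Ppt1 did not pass when any 1 of the 5 arrays was left out, and Lamtor5 passed only without day 7 replicate 3.

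Serpinb10, a serine protease inhibitor, lay at 7.36, 7.54 and 7.53 at day 7, against 10.06 and 8.19 at day 4. The 2 day 4 arrays were nearly 2 units apart, so that the change of -1.64 ± 0.40 (limma adjusted p = 0.03) became -0.71 without day 4 replicate 1 (adjusted p = 0.78) and -2.58 without day 4 replicate 2 (0.0014). Leaving out single day 7 arrays gave adjusted p from 0.051 to 0.11. Ch25h, which makes the oxysterol 25-hydroxycholesterol, lay at 8.33, 8.47 and 8.53 at day 7, against 9.48 and 9.52 at day 4. It changed by -1.06 ± 0.20 (limma adjusted p = 0.0027), and lost the call without day 4 replicate 1 (adjusted p = 0.059) or 2 (0.1). The falls of the adaptor Sla, the inhibitory receptor Milr1, integrin Itga6, carbonyl reductase Cbr1 and of Cmc1, Bud31, Ccdc125, Tmed4 and Ndufaf1 lay between -1.0 and -0.73, and without day 4 replicate 2 these genes did not pass, with adjusted p from 0.061 for Sla to 0.54 for Ndufaf1. Sla and Milr1 passed with each of the other 4 arrays left out, and Cmc1 and Cbr1 failed also without day 4 replicate 1 (0.059 each). Bud31, Itga6, Ccdc125, Tmed4 and Ndufaf1 failed without day 4 replicate 1 and without 1 or more of the day 7 arrays too, with adjusted p from 0.051 to 0.4.

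Of 20 tested cholesterol synthesis genes 1 fell and 0 rose, with a median of -0.19, where 0.406% of all tested genes fell. That gene was Cyp51, lanosterol demethylase, which lay at 8.07, 7.70 and 8.30 at day 7, against 8.65 and 8.69 at day 4. It changed by -0.65 ± 0.17 (limma adjusted p = 0.048), and passed only without day 7 replicate 3 when single arrays were left out (adjusted p from 0.11 to 0.47 otherwise).

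Many genes of inflammation and of recent monocyte origin did not pass. In the list of 17 Ly6C-high monocyte genes 0 rose and 0 fell, with a median of -0.14 and 3 members above 0. Ccr2, the chemokine receptor that draws monocytes into tissue, lay at 11.22, 11.23 and 11.11 at day 7, against 12.13 and 11.75 at day 4, a change of -0.75 ± 0.34 (limma adjusted p = 0.34). Plac8 changed by -1.14 ± 0.37 (0.14) and Chil3 by -1.09 ± 0.50 (0.36). Tnf lay at 11.59, 11.66 and 11.58 at day 7, against 12.11 and 12.13 at day 4, and missed the threshold at -0.51 ± 0.14 (limma adjusted p = 0.058). None of 30 inflammatory cytokine and NF-kB genes and none of 23 chemokines passed, where 1.17% of all tested genes did. At that share, a list of this size without a call says little about its genes. A p above the threshold does not show that these levels were equal.

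The list of cell cycle and DNA replication genes also gave no call. None of 53 tested members rose or fell, where 1.17% of all tested genes passed. The list median was 0.10, and Mki67 lay at 10.29, 10.28 and 10.03 at day 7, against 9.97 and 10.02 at day 4. Outside that list, the DNA polymerase subunit gene Pold1 passed as a rise, by 0.37 to 0.59 with single arrays left out. Pold1 did not pass without day 7 replicate 2 or 3, or without day 4 replicate 2. Igf1, a growth factor that macrophages supply to muscle, changed by 0.25 ± 0.13, Gdf3 by 0.15 ± 0.19, Gpnmb by 0.10 ± 0.11, Trem2 by 0.02 ± 0.13 and the cytokine Il10 by 0.12 ± 0.25, and these 5 did not pass. The type I interferon list had 0 of 29 genes past the threshold, with a median of 0.34 and 25 members above 0 (86.2% of the list, against 56.5% of all genes). Ciita was the 1 of 25 IFN-gamma-induced genes to pass, and the median of that list was 0.25. The lists of oxidative phosphorylation genes (0 of 34, median -0.09) and of glycolysis and hypoxia genes (0 of 27, median 0.09) gave no call. Outside the first list, Ndufa3 and Ndufb7, which encode subunits of respiratory complex I, fell. With single arrays left out they changed by -0.5 to -0.4 and by -0.56 to -0.42. Both passed without day 7 replicate 3 (limma adjusted p = 0.0071 and 0.023), and failed when any other single array was left out.

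**Figure D4:**
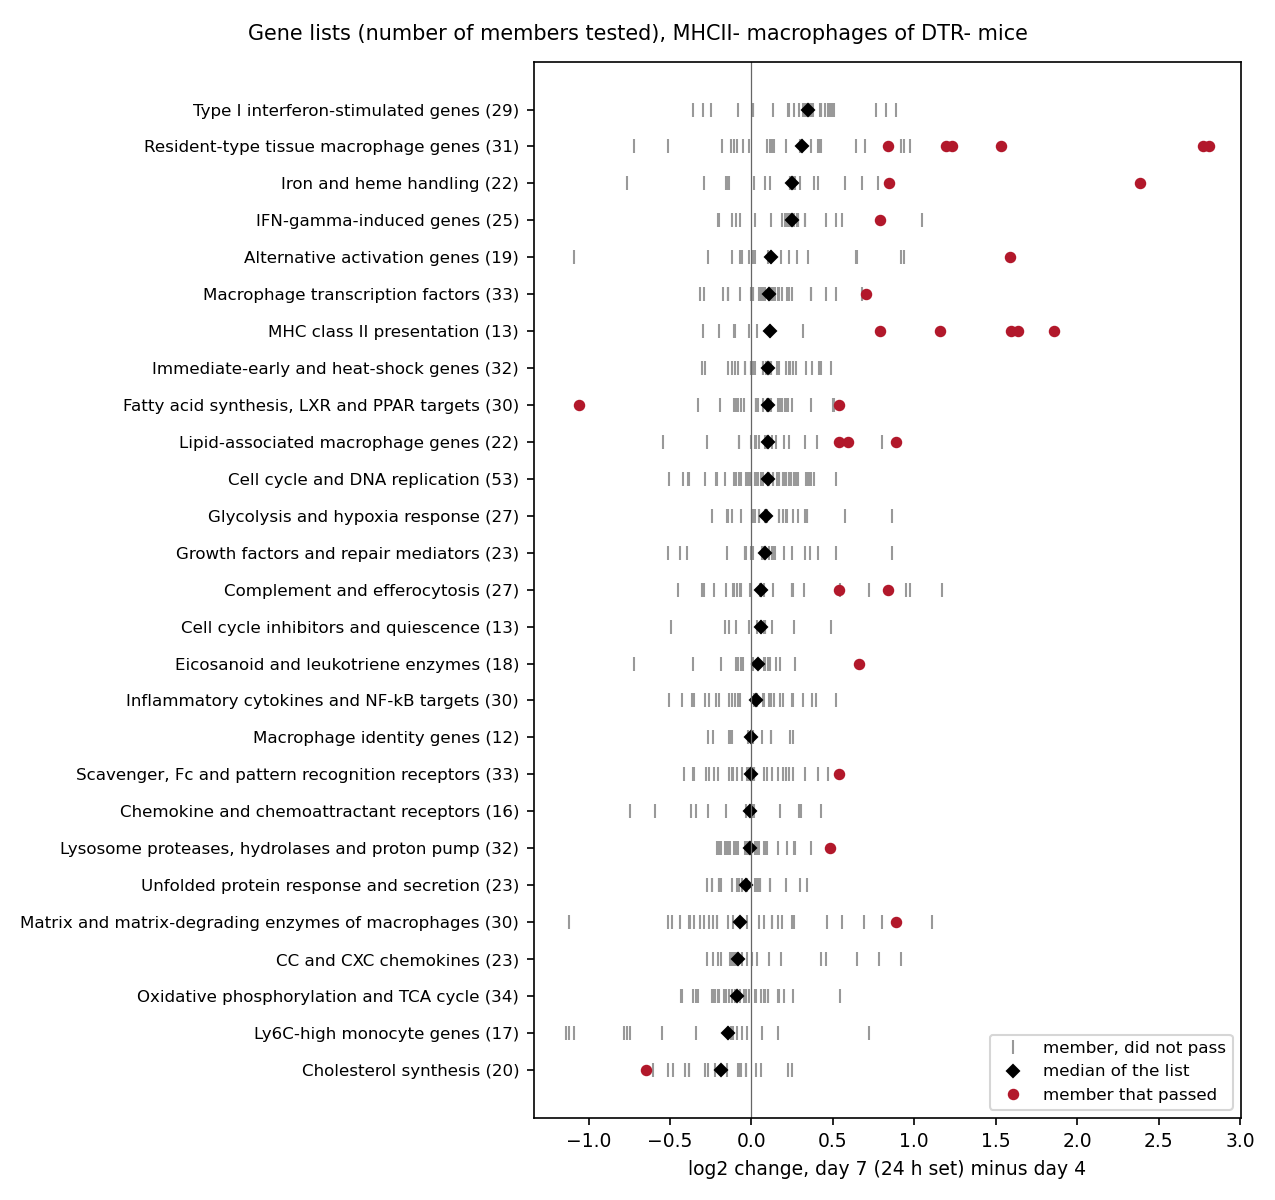
Log2 change at day 7 (24 h set) minus day 4 of the tested members of 27 gene lists, with grey ticks for members that did not pass, red dots for those that did and black diamonds for list medians. The red dots far to the right are Cd209f, Cd209d and Slc40a1, and those of the MHCII list are its 5 called members.

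Because the day 7 gate lists no SiglecF step, eosinophil genes were examined. None of the 4 tested eosinophil genes passed, where 1.17% of all tested genes did. Siglecf lay at 7.57 to 7.58 at day 7, against 7.74 to 7.77 at day 4. The granule genes Prg2 (6.18 to 6.37 at day 7, against 6.32 to 6.51 at day 4) and Epx (5.74 to 6.28 at day 7, against 5.96 to 5.99 at day 4) lay below the intensity filter and were not tested. The summed intensity of the 9 eosinophil genes on the array was 1407 to 1532 at day 7, against 1511 to 1753 at day 4. Of these genes 6 lay below the filter line in all 5 arrays. The brightest, Adgre4, lay at 9.07 to 9.41 at day 7, against 9.27 to 9.74 at day 4. In the MHCII+ arrays of the 24 h set Adgre4 lay at 9.54 to 10.19, so the sum follows a gene not limited to eosinophils.

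The listed genes of other muscle cells gave no call. Skeletal muscle genes had a median change of 0.25, with 13 of 15 above 0 and none past the threshold, and their summed intensity was 6762 to 8198 at day 7, against 5776 to 6076 at day 4. Of the 19 on the array 6, Myh1, Myh2 and Myh3 among them, lay below the filter line in all 5 arrays. Among brighter members, Ckm lay at 9.0 to 9.39 at day 7, against 8.74 to 8.81 at day 4. Atp2a1 lay at 8.93 to 8.99 at day 7, against 8.46 to 8.58 at day 4. Fibroblast genes had a median of 0.25, with 9 of 13 above 0 and none past the threshold. They summed to 4766 to 6345 at day 7, against 4300 to 4485 at day 4. Dcn lay at 8.6 to 9.8 at day 7, against 7.9 to 8.2 at day 4, and Dpt at 7.1 to 8.1, against 6.7 to 6.8. The fibroblast receptor gene Pdgfra lay below the filter line in all 5 arrays. The matrix gene Bgn, outside that list, passed as a rise, by 0.91 to 1.42 with single arrays left out. Bgn did not pass without day 7 replicate 1 or 2, or without day 4 replicate 2. Of 10 dendritic cell genes 1 passed, Cd209a, where 1.17% of all tested genes did. Xcr1, Clec9a and Flt3 lay below the filter line. Neutrophil genes gave no call (0 of 13), T and NK cell genes none (0 of 7) and B cell genes none (0 of 3). In sorted bulk samples, fewer cells of a type and less RNA per cell cannot be told apart, and the part of such cells in the changes was not tested.

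The 8 h set gives a second look at day 7 with the SiglecF- gate of day 4, though with older mice and with the same 2 day 4 arrays, so the comparisons are not independent. There 470 genes (4.24%) passed, 285 higher (2.57%) and 185 lower (1.67%). The count was 53 without day 4 replicate 1, 58 without day 4 replicate 2, 202 without 8 h replicate 1, 152 without 8 h replicate 2 and 1007 without 8 h replicate 5. Median centring gave 283 genes and a fit of the compared arrays alone 31.

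H2-Ab1 lay at 11.49 to 12.18 in the 8 h arrays and differed from day 4 by 1.33, and by 1.59 in the 24 h set. Cd209f lay at 11.47 to 12.60 in the 8 h arrays (change 3.01, and 2.81 in the 24 h set), and Slc40a1 at 10.10 to 11.27 (1.95, and 2.39). Vsig4, which did not pass in the 24 h set, lay at 10.31 to 11.82 in the 8 h arrays and passed with a change of 1.94 (limma adjusted p = 4.7e-05). Ccr2 lay at 10.66, 8.95, 11.09 and 11.01 there, with replicate 2 far below the others. Ccr2 passed with -1.51 (limma adjusted p = 0.0055), and Tnf passed with -0.81 (adjusted p = 0.00027). The difference between the 2 sets at day 7 was not tested.

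Other named genes had little or no change in the 8 h set. Adam30 differed from day 4 by 0.02 there (limma adjusted p = 0.98), Cbr1 by 0.09 (0.79) and Tmed4 by -0.03 (0.95), against 1.28, -0.75 and -0.73 in the 24 h set. Of 15 muscle genes 5 rose in the 8 h arrays, against 2.57% of all tested genes, with a median of 0.51 and a summed intensity of 7436 to 14500. Of 13 fibroblast genes 3 rose there, with a median of 0.39.

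Uninjured and day 1 muscle supplied arrays outside this comparison. Cd209f lay at 13.14 to 13.36 at day 0, 5.38 to 5.62 at day 1, 8.80 to 9.24 at day 4 and 11.28 to 12.18 at day 7 (24 h set). Slc40a1 lay at 10.45 to 10.51, 6.66 to 6.84, 8.80 to 9.03 and 11.13 to 11.46 on those days. Cd209f at day 7 was thus below its day 0 level, and Slc40a1 above it. Timd4 lay at 10.09 to 10.32 at day 0, 6.88 to 7.01 at day 1, 6.91 to 6.94 at day 4 and 7.49 to 8.03 at day 7, and stayed far below day 0. Kitl lay at 9.85 to 9.88 at day 0, 5.56 to 5.73 at day 1, 6.60 to 6.99 at day 4 and 7.85 to 8.43 at day 7.

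Of the 15 leading rises, 14 had both day 0 arrays above both day 1 arrays, the exception being Adam30. The same held for 73 of the 85 genes that rose (85.9%) and for 40.8% of all tested genes. Of the 45 genes that fell, 31 (68.9%) had both day 0 arrays below both day 1 arrays, against 32.1% of all tested genes. Serpinb10, for one, lay at 8.00 to 8.25 at day 0 and at 11.03 to 11.07 at day 1. Day 0 and day 1 also differ in gate, age and DT, which cannot be told apart from the injury, and these counts are a description with no test.

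**Figure D5:**
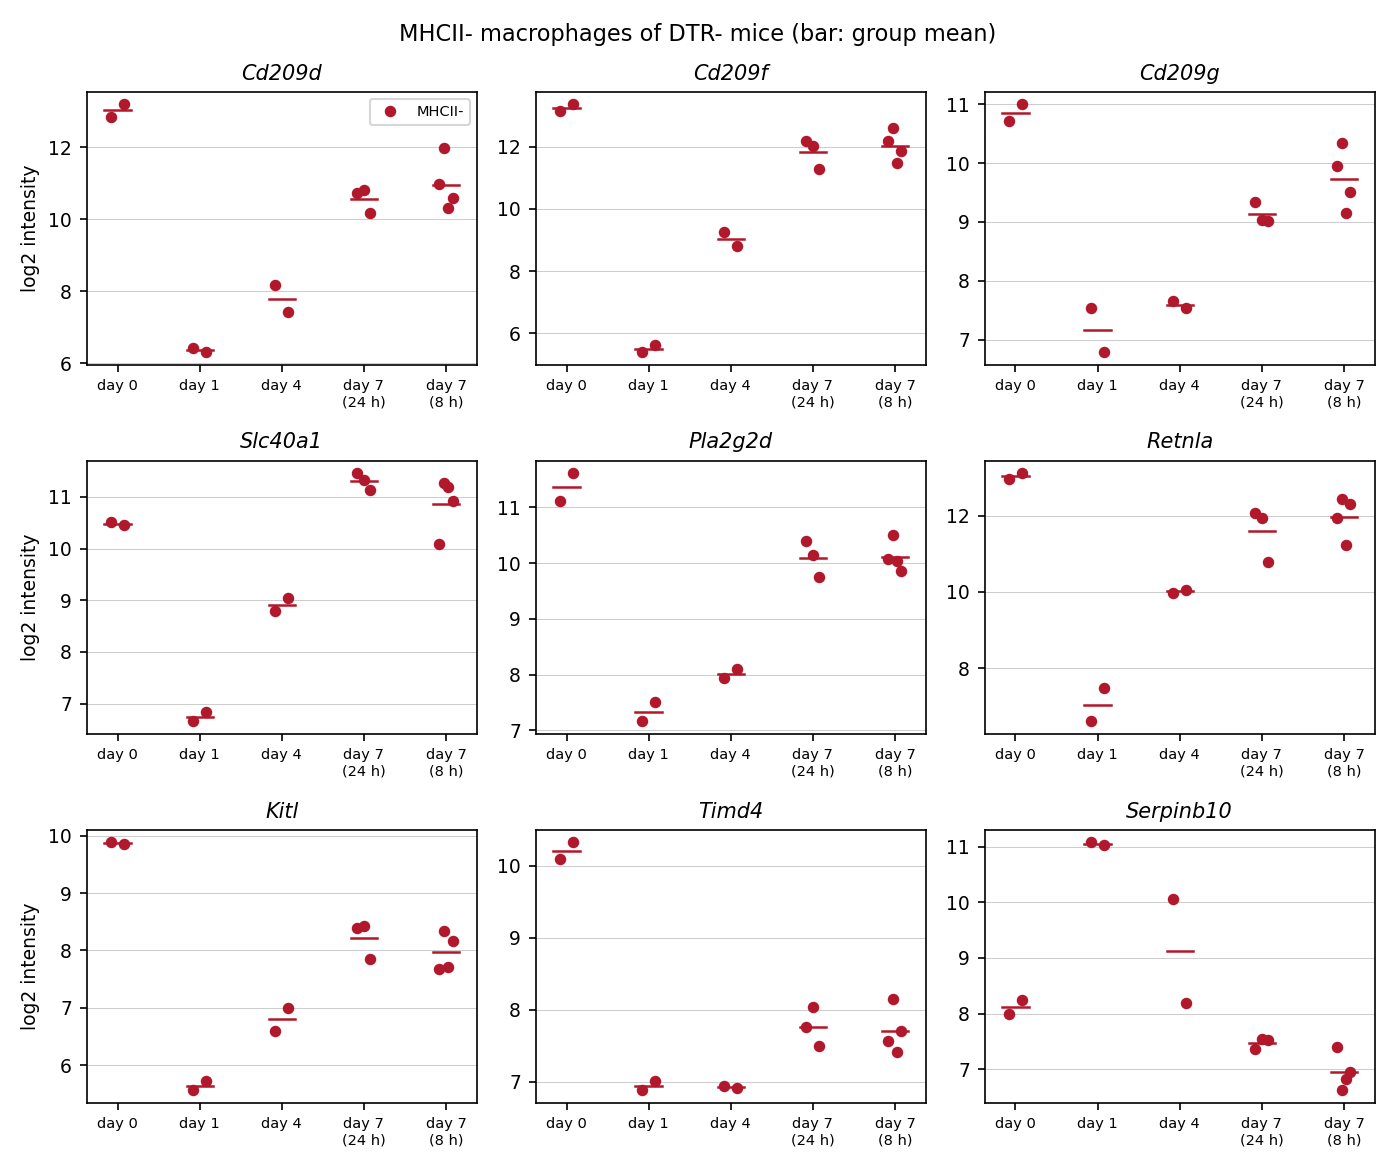
Log2 intensity of 9 genes in MHCII- arrays of DTR- mice at days 0, 1, 4 and 7 (24 h and 8 h sets), with bars at the group means. The panels other than Serpinb10 are high at day 0, low at day 1 and higher at day 7 than at day 4, with Timd4 at day 7 still near the bottom of its range, while Serpinb10 is highest at day 1.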

How the data were processed

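Gene expression of sorted muscle macrophages was read from the Affymetrix Mouse Gene 1.0 ST microarray, 45 in all. The authors deposited linear intensity values for 24922 probe sets, and the submitters' processing notes name Affymetrix Power Tools and RMA, without versions. RMA corrects background, makes the arrays' distributions alike and summarises probes, so a shift of all genes together would not be seen. The deposited intensity values carry no detection or saturation calls.

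Log2 of the intensity was analysed here. The platform annotation gave 1 symbol for 21425 probe sets, several for 1399 and none for 2098. The brightest probe set stood for each of 19752 genes. limma 3.58.1 (R 4.3.3, with a trend) was fitted to all 45 arrays with 18 group means (27 residual degrees of freedom), and p-values were adjusted by the Benjamini-Hochberg method over 11074 genes whose mean in at least 1 group reached 7.57. An adjusted p under 0.05 counted as passed. Changes are day 7 minus day 4 with their standard errors from that fit, and its residual SD was 0.19. Code was tested on simulated data. Python 3.11.15 served for tables and figures.

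Genes named were the 15 largest non-overlapping changes each way without predicted genes, up to 4 members a list and direction with the smallest p, up to 5 genes each way for the subset difference, and a fixed set. The members, this rule and the 38 gene lists were chosen with earlier results of these data known. The filter, scaling, probe set choice, arrays fitted, variance model, a replicate block and leaving out each array were varied. Replicate numbers were not taken as pairs: residuals of same-numbered day 7 and day 4 arrays correlated at -0.335 and 0.123, and those of MHCII- and MHCII+ arrays at 0.359, 0.154 and -0.019 (day 7) and -0.257 (day 4). With so few arrays in a group, these correlations cannot settle whether arrays were paired. The MHCII+ change was given without a test of its own.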

Additional observations from a re-analysis of the deposited data

Results flagged for a closer look

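The change at day 7 against day 4 differed between MHCII- and MHCII+ cells, by a test of the difference, in 5 genes. The differences on the log2 scale were 1.78 for H2-Aa, 1.57 for H2-Ab1, 1.55 for H2-Eb1, 1.05 for Cd74 and -1.72 for H2-M2.

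Single arrays stood apart from the rest of their group in 4 of 100 groups of values checked, where chance gives about 1 in 20. Cetn2 was at 8.2 in replicate 5 of the MHCII- arrays of the 8 h set, where the others lay at 8.7 to 8.77. Tnf was at 11.71 in the same array, where the others lay at 11.14 to 11.2. In replicate 3 of the MHCII+ arrays of the 24 h set at day 7, Tnf was at 11.49, with the others at 11.8 to 11.83, and the eosinophil granule gene Prg2 was at 7.9, with the others at 6.19 to 6.28.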

How the results depend on the processing

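The 130 genes that passed at day 7 (24 h set) against day 4 became 78 without a filter, 84 with median centring (55 higher and 29 lower), 297 with the compared arrays fitted alone and 27 with a 2-fold minimum. Array weights gave 4000, but their estimation stopped before it converged. Quantile scaling gave 161 genes, split into 80 higher and 81 lower, against 85 higher and 45 lower. Leaving out 1 array gave 18 to 131. For the difference between subsets, with 5 genes, leaving out 1 array gave 3 to 7. For the 8 h set, with 470 genes, the count was 302 without a filter, 283 with median centring (143 higher and 140 lower), 31 with the compared arrays alone, 706 with DTR- arrays alone and 4261 with array weights. Leaving out 1 array gave 53 to 1007. A replicate block gave 115, 2 and 911 genes for the 3 comparisons. Whether same-numbered arrays were paired is not stated in the labels, and the residual correlations cannot settle it. Under the block the subset difference passed for Cd74 and H2-Ab1 (limma adjusted p = 0.0095 each). It did not pass for H2-Aa (0.18), H2-M2 (0.55) or H2-Eb1 (0.59), and the cause of these shifts was not tested. The 30 leading genes kept their sign under each alternative run, and 10 of them kept their call in all 17. With 2 day 4 arrays, many calls rest on 1 of them.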
